A study of Mus musculus with 20 samples.

Results

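The genes described here code for 7 S100 proteins (S100a4, S100a6, S100a8, S100a9, S100a10, S100a11 and S100b) and 3 annexins (Anxa1, Anxa2 and Anxa5), measured by RNA sequencing in mouse brain. They were chosen by name as members of these families of calcium-binding proteins, with earlier results of these data known. They are 10 of the 54532 genes in the count table. There were 20 libraries, 5 for each of 4 genotypes: wild type (WT, titled as controls), mice without Glb1 (Glb1KO), mice without Neu3 (Neu3KO) and mice without either gene (DKO). The Glb1 enzyme, a beta-galactosidase of the lysosome, removes galactose from GM1 ganglioside, and patients who lack it have GM1 gangliosidosis. The Neu3 enzyme removes sialic acid from gangliosides at the cell membrane. RNA was taken from 1 hemisphere per brain, with selection for poly(A) RNA. The labels give no treatment, no allele shared by all groups, and no promoter or cell type that limits the knockouts. Strain, age, sex and the design of the alleles are not given in the sources used here, beyond the statement that the mice were healthy and came from The Jackson Laboratory. The labels do not say that each library is a separate animal, so p-values measure the spread between these libraries, which may be technical.

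S100 proteins are small calcium sensors of the EF-hand type that pair with each other and bind target proteins when calcium rises. Annexins bind to membranes rich in acidic phospholipids when calcium rises, and serve in membrane repair, vesicle traffic and the clearance of dying cells. The families meet in complexes: the S100a10 protein binds Anxa2 and holds it at the cell membrane, and S100a11 binds Anxa1. S100a8 and S100a9 form calprotectin, a secreted alarm signal that neutrophils and monocytes hold in large amounts. In brain, S100b is a standard marker of astrocytes, and S100a6, S100a10 and several annexins are known to be made by astrocytes that react to injury.

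Upstream sequences are shown for 4 of the genes that rose in DKO, since members that move together raise the question of what letters their start regions share. S100a6 is shown as the member with the most precisely measured large rise, S100a11 and Anxa2 as those that hold the same motif, and S100a9 as one of the calprotectin pair. The sequences are RefSeq's for GRCm38.p6, read 5′ to 3′ on the gene's strand. They start 250 bases before the RefSeq start and stop before the first base of the gene in the count table. They lie at chr3:90612644-90612881 (plus strand) for S100a6, chr3:93520246-93520487 (plus strand) for S100a11, chr9:69453433-69453619 (plus strand) for Anxa2 and chr3:90695722-90695971 (minus strand) for S100a9. Capitals mark matches to the AP-1 motif TGANTCA in S100a11 and Anxa2 and to the C/EBP motif TTGCNNAA in S100a9.
S100a6: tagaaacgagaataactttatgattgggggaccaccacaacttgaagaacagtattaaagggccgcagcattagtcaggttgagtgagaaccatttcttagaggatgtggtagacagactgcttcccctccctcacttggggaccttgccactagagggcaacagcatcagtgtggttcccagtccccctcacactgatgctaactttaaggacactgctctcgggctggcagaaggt
S100a11: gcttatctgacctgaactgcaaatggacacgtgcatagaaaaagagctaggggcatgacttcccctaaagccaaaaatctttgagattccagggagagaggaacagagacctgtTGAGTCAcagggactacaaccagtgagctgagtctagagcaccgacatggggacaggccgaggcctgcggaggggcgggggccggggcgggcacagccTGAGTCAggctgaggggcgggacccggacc
Anxa2: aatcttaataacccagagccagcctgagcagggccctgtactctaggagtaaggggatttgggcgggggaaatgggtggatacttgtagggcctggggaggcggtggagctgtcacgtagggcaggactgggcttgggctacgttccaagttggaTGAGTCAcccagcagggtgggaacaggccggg
S100a9: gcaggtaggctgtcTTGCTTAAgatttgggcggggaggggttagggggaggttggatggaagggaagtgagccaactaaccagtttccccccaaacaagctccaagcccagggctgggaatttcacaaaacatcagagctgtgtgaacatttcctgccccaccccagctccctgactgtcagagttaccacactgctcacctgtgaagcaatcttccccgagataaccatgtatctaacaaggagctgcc

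RefSeq windows were matched by symbol for 9 of the 10 genes, all but S100a10. Over the 250 bases before the start, both strands were searched for TGANTCA, for TTGCNNAA and for the STAT motif TTCNNNGAA. These motifs do not overlap in the matches found. AP-1 letters began at -136 and -38 from the start of S100a11 and at -95 from that of Anxa2. C/EBP letters began at -236 from the start of S100a9 and at -143 from that of Anxa1, and no STAT letters were found in the 9 windows. Among 32851 promoters of the same length, 6.75% held TGANTCA, 9.56% held TTGCNNAA and 7.02% held TTCNNNGAA. A match describes letters only, and the factors' binding was not measured.

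Total reads per library ran from 15162311 to 25145806, and the ranges of the genotypes overlapped. Of all genes, 18336 passed the filter on low counts and were tested. Values are given as CPM, counts scaled to library size with TMM factors, unless reads or FPKM are named. As a check of the labels, Glb1 was at 20.2 ± 1.32 CPM in WT, 3.38 ± 0.90 in Glb1KO, 20.5 ± 1.34 in Neu3KO and 4.0 ± 1.1 in DKO (SD, n = 5 each). Neu3 was at 3.85 ± 1.22, 4.06 ± 0.62, 2.86 ± 0.41 and 2.98 ± 0.83 CPM in the same order. Its ranges overlapped between genotypes, and since the deleted part is not stated, its counts do not check the Neu3 labels. Library identifiers start with 1 of 3 letters: WT has 5 E, Glb1KO 2 E and 3 L, Neu3KO 1 E and 4 W, and DKO 2 E and 3 W. The labels do not say what the letters mean.

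DKO brain held more RNA of most S100 and annexin genes than WT brain. S100a6 was 4.49-fold higher, S100a11 2.62-fold, Anxa2 1.83-fold, Anxa5 1.73-fold, S100a10 1.59-fold and S100b 1.32-fold, and the scarce S100a8 and S100a9 were 9.65-fold and 3.67-fold higher. Anxa1 did not pass the test, and S100a4 had no reads. By edgeR's quasi-likelihood test with Benjamini-Hochberg adjustment over all genes tested, at a threshold of 0.05, 8 of the 9 tested members rose and 0 fell. Over all genes tested, 14% rose and 15.1% fell. The members' median log2 fold change was 0.87, against -0.003 over all genes. Since the members were chosen with earlier results of these data known, these contrasts describe them and do not test them. In 7 members, S100a8 among them, every DKO library was above every WT library, as in 9.28% of all genes. S100a8 and S100a9 passed the filter only through DKO and Glb1KO libraries. They had to be high there and lend no support to either count. Of the 7 other tested members 6 rose, each with every DKO library above every WT library. All WT identifiers begin with E, and within E libraries (5 WT, 2 DKO) the same 6 of these 7 members rose. Of all 20091 genes tested within E libraries, 2583 were called in this comparison, in either direction. In bulk tissue, more cells of a type and more RNA per cell cannot be told apart.

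**Figure D1:**
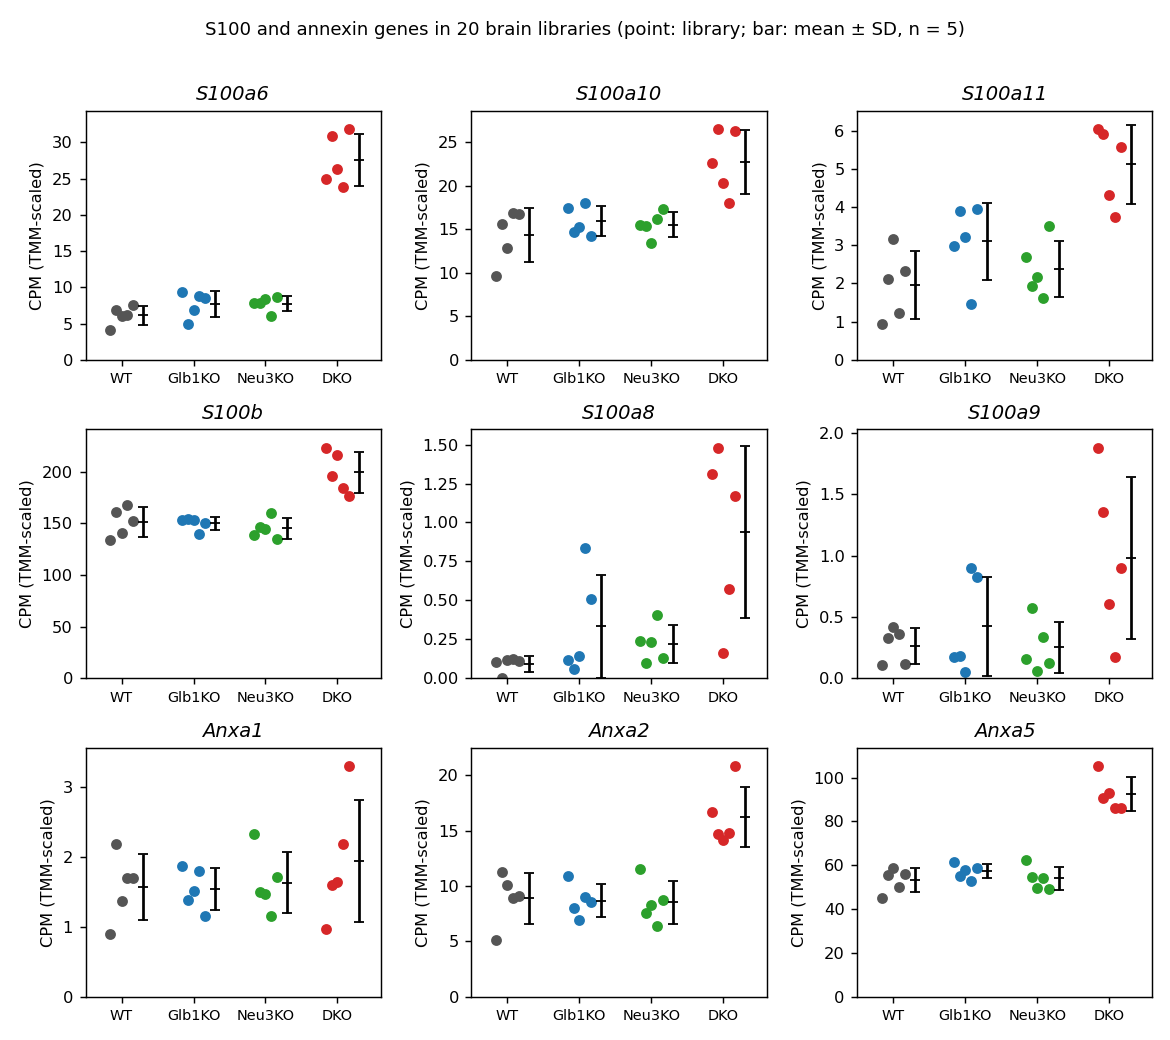
CPM (TMM-scaled, linear axes from 0) of the 9 members with reads, 1 point per library and the mean ± SD of each genotype beside them (n = 5). DKO libraries (red) sit above all 15 others for S100a6, S100b, Anxa2 and Anxa5, while the Anxa1 groups overlap.

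S100a6, a calcium sensor also called calcyclin that is found in astrocytes, ependymal and connective tissue cells, showed the most precise of the large rises. It lies at chr3:90612882-90624181 on the plus strand (GRCm38, ENSMUSG00000001025). The WT libraries, replicates 1 to 5, held 4.11, 6.81, 6.02, 6.20 and 7.59 CPM of S100a6. Those of Glb1KO held 9.34, 4.92, 6.88, 8.85 and 8.55 CPM, and those of Neu3KO 7.78, 7.84, 8.43, 6.04 and 8.71 CPM. In DKO the values were 24.9, 30.8, 26.3, 23.9 and 31.8 CPM. The lowest DKO library thus stood far above the highest of the 15 others, and the other 3 genotypes overlapped each other. The rise from WT to DKO was 2.17 on the log2 scale (SE 0.15, 95% interval 1.87 to 2.46, adjusted p = 2.41e-13). Within E libraries it was 2.19.

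S100a4, known from fibroblasts, T cells and motile cells, had 0 reads in all 20 libraries, among 356400730 reads in total. It lies at chr3:90603771-90606045 on the plus strand (ENSMUSG00000001020), 9.11 kb before S100a6. A count of 0 allows up to 3 reads in a library, or 0.119 to 0.198 CPM, which covers counting error only. In the GENCODE M21 annotation, 302 of its 584 exon bases (51.7%) are shared with Gm42674 on the same strand, which had 1 read over the 20 libraries. Of the 306 coding bases, 287 lie in that shared stretch. The last 150 coding bases, at chr3:90605755-90605904 (plus strand), are shown because they hold the end of the overlap, with lower case for shared bases and capitals for those of S100a4 alone.
S100a4: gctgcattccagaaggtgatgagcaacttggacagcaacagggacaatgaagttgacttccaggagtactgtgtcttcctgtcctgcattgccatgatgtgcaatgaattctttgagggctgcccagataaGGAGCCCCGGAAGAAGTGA

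How reads in shared stretches were assigned is not given in the sources used here, and the part of the overlap in the count of 0 was not tested. Of the neighbours, S100a3 had 122 reads over the 20 libraries. S100a4 was not listed in the authors' deposited table of DKO against WT.

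S100a8 and S100a9, the subunits of calprotectin, were scarce in every genotype and uneven within genotypes. S100a8 (ENSMUSG00000056054, chr3:90668978-90670035, plus strand) had 2, 0, 2, 2 and 2 reads in the WT libraries. It had 2, 1, 3, 13 and 8 reads in Glb1KO, 6, 2, 4, 6 and 2 in Neu3KO and 23, 25, 3, 10 and 22 in DKO. Every DKO library held more than any WT library once scaled to depth, but DKO replicate 3, at 0.16 CPM, lay within the range of both single knockouts. The mean was 0.092 ± 0.052 CPM in WT and 0.94 ± 0.55 CPM in DKO (SD, n = 5). The rise was 3.27 on the log2 scale (SE 0.66, 95% interval 1.93 to 4.61, edgeR adjusted p = 2.30e-04), and the authors' deposited table gives 3.37.

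S100a9 (ENSMUSG00000056071, chr3:90692632-90695721, minus strand) had 2, 6, 7, 6 and 2 reads in WT and 3, 3, 1, 14 and 13 in Glb1KO. Neu3KO libraries held 4, 12, 1, 5 and 2 reads, and DKO libraries 33, 23, 11, 3 and 17. DKO and WT overlapped, since DKO replicate 4 had 3 reads. S100a9 rose from WT to DKO by 1.88 on the log2 scale (SE 0.61, 95% interval 0.63 to 3.12, edgeR adjusted p = 0.0198), and the authors' deposited table gives 1.90. This call was lost without WT replicate 1 (1.67, adjusted p = 0.0561), without WT replicate 5 (1.69, adjusted p = 0.0537) and without DKO replicate 1 (1.51, adjusted p = 0.0747).

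In DKO and Glb1KO, the letter of the identifier moved with both calprotectin genes. In DKO, S100a8 averaged 1.39 CPM in the 2 E libraries and 0.64 CPM in the 3 W libraries, and S100a9 averaged 1.62 and 0.56 CPM. In Glb1KO, S100a8 averaged 0.67 CPM in the 2 E libraries and 0.11 CPM in the 3 L libraries, and S100a9 averaged 0.86 and 0.13 CPM. The high Glb1KO libraries were thus both E libraries, while the 5 WT libraries, all E, were low. Neu3KO did not follow: its 1 E library was at 0.24 CPM of S100a8 and 0.16 of S100a9, and its 4 W libraries averaged 0.22 and 0.28 CPM. Within E libraries, DKO stood 3.85 above WT for S100a8 (adjusted p = 3.09e-04) and 2.61 for S100a9 (adjusted p = 0.00222) on the log2 scale. With the letter as a term in the fit, S100a8 also differed between Glb1KO and WT (2.79, adjusted p = 0.036), but within E libraries it did not pass (2.80, adjusted p = 0.0597). Both genes passed the filter only through libraries of DKO and Glb1KO, so they had to be high there. These tests thus lend no independent support to a rise.

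**Figure D2:**
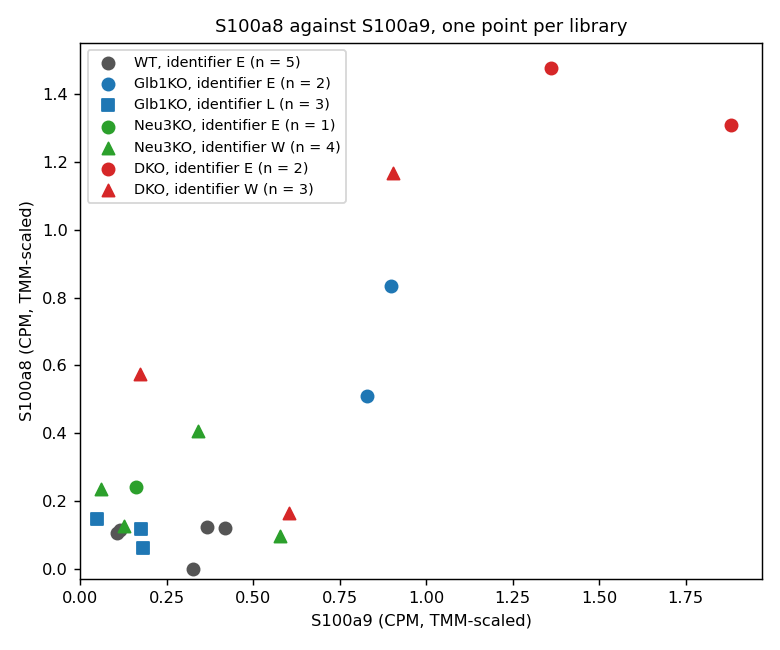
S100a8 (y axis) against S100a9 (x axis) in CPM (TMM-scaled), 1 point per library, coloured by genotype and shaped by the first letter of the identifier. The 2 DKO libraries with identifiers in E lie at the upper right, and the 2 Glb1KO libraries in E stand apart from the 3 in L.

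Markers of the blood cells that carry calprotectin were read beside these genes. The 11 neutrophil markers summed to 5.72 to 10.5 CPM in WT, 10.3 to 14.6 in Glb1KO, 5.66 to 8.98 in Neu3KO and 32.8 to 54.6 in DKO. Only 2 of the 11 passed the filter, and both rose in DKO, as did 14% of all genes. Lcn2, which reactive astrocytes also make, rose by 6.53 on the log2 scale (SE 0.56). Csf3r, which microglia also express, rose by 1.49 (SE 0.19). Lcn2 was too low in WT to pass the filter there. It had to be high in another genotype, and its rise lends no support to the count. Both genes are in the sums, which thus do not measure neutrophils alone. Of the defining granule and surface genes, Ly6g was at 0 in WT, Glb1KO and Neu3KO and had 2 reads over the 5 DKO libraries, and Elane had 0, 5, 1 and 2 reads in WT, Glb1KO, Neu3KO and DKO. Retnlg and Cxcr2 were at 0 in WT, and Cxcr2 also in Glb1KO. Mpo, Camp, Ngp, Ltf and Mmp8, also not tested, had reads in every genotype. Of the 11 markers, 4 were at 0 in WT, 2 in Glb1KO, 1 in Neu3KO and 0 in DKO. The 6 monocyte markers summed to 26.6 to 37.2 CPM in WT, 27.5 to 31.5 in Glb1KO, 27.2 to 34.5 in Neu3KO and 33.1 to 39.4 in DKO. Only 1 of the 6 passed the filter, so these sums rest largely on that gene and do not measure monocytes as a set. That gene did not pass the test in DKO against WT, and was higher in DKO than in Glb1KO and in Neu3KO. The part of blood cells in the calprotectin values was not tested.

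S100a10 and Anxa2 code for the partners of a membrane complex that links membranes to actin and binds plasminogen activator, and both rose in DKO. S100a10 (ENSMUSG00000041959, chr3:93555080-93564643, plus strand) was at 9.69, 15.6, 12.8, 16.9 and 16.8 CPM in WT and 22.6, 26.5, 20.4, 18.0 and 26.3 CPM in DKO. The groups did not overlap, but the lowest DKO value, 17.99 CPM, was just below the highest of the single knockouts, 18.08 CPM in Glb1KO. S100a10 rose by 0.67 on the log2 scale (SE 0.12, 95% interval 0.42 to 0.92, edgeR adjusted p = 9.33e-05). Anxa2 (ENSMUSG00000032231, chr9:69453620-69491795, plus strand) was at 5.16, 11.3, 10.1, 8.94 and 9.06 CPM in WT and 16.7, 14.7, 14.2, 14.8 and 20.8 CPM in DKO. WT replicate 1 was the low library for both genes, and no Anxa2 value of DKO reached down to any of the 15 others. Anxa2 rose by 0.87 (SE 0.17, 95% interval 0.53 to 1.21, adjusted p = 2.02e-04). Of its 3731 exon bases, 98 (2.63%) lie opposite Gm16144 on the other strand, and without a stated strand setting those reads cannot be told apart. Per library, the ratio of S100a10 to Anxa2 in FPKM was 5.10 ± 0.93 in WT and 4.36 ± 0.72 in DKO (SD, n = 5), and these ranges overlapped.

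S100a11, the partner of Anxa1, rose in DKO while Anxa1 did not pass the test. S100a11 (ENSMUSG00000027907, chr3:93520488-93526287, plus strand) was at 0.95, 2.12, 3.16, 1.22 and 2.32 CPM in WT. Its Glb1KO values were 2.98, 3.90, 3.22, 1.47 and 3.96 CPM, and its DKO values 6.04, 5.92, 4.33, 3.74 and 5.57 CPM. DKO was above every WT library, while Glb1KO overlapped with both WT and DKO. S100a11 rose by 1.39 on the log2 scale (SE 0.26, 95% interval 0.85 to 1.93, edgeR adjusted p = 1.41e-04). Anxa1 (ENSMUSG00000024659, chr19:20373428-20390944, minus strand), known for ending inflammation through formyl peptide receptors, was at 0.90, 2.18, 1.37, 1.70 and 1.70 CPM in WT. In DKO it was at 0.97, 1.60, 1.64, 2.18 and 3.29 CPM, so that the groups overlapped over most of their range. The Anxa1 difference was 0.31 (SE 0.28, 95% interval -0.26 to 0.88, adjusted p = 0.454), an interval that does not show equal levels. Within E libraries it was -0.28, with a mean of 1.57 CPM in 5 WT and 1.28 CPM in 2 DKO libraries.

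S100b, the astrocyte calcium sensor, was the most abundant member and rose least among those that passed. S100b (ENSMUSG00000033208, chr10:76253853-76261159, plus strand) was at 134, 161, 140, 168 and 153 CPM in WT and 223, 196, 216, 184 and 177 CPM in DKO. Every DKO library was above the 15 others, by a narrow margin over the highest WT library. The rise was 0.40 on the log2 scale (SE 0.064, 95% interval 0.27 to 0.53, edgeR adjusted p = 1.02e-05). Glb1KO libraries, at 150.1 ± 6.19 CPM, and Neu3KO libraries, at 145.0 ± 9.80 CPM, overlapped with the WT libraries at 151.1 ± 14.2 CPM.

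Anxa5, which binds exposed phosphatidylserine and is used as a probe for dying cells, was the most abundant annexin among the 3. Anxa5 (ENSMUSG00000027712, chr3:36448923-36475894, minus strand) was at 45.3, 55.5, 59.0, 50.1 and 56.1 CPM in WT. Its DKO values were 105, 90.8, 93.2, 86.2 and 86.2 CPM. The single knockouts ranged from 49.2 to 62.5 CPM, so DKO stood clear of all other libraries. The rise from WT was 0.80 on the log2 scale (SE 0.072, 95% interval 0.65 to 0.94, edgeR adjusted p = 1.02e-10).

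Markers of glia and neurons moved in the same libraries, and some of them also in Glb1KO, where no member was called. Over all genes tested, 14% rose and 15.1% fell in DKO against WT, and 3.96% were called in Glb1KO against WT. Markers of astrocytes summed to 4678 to 4879 CPM in WT, 4939 to 5337 in Glb1KO, 4756 to 5347 in Neu3KO and 5761 to 6288 in DKO. In DKO 5 of 7 rose, with a median log2 fold change of 0.41, and in Glb1KO 0 of 7 were called. Reactive astrocyte markers summed to 242 to 316 CPM in WT, 492 to 682 in Glb1KO, 249 to 300 in Neu3KO and 4273 to 5076 in DKO, and 7 of 8 rose in DKO and 3 of 8 in Glb1KO. Microglia markers summed to 189 to 232 CPM in WT, 270.3 to 280.8 in Glb1KO and 380 to 513 in DKO, and 6 of 8 rose in DKO and 3 of 8 in Glb1KO. Disease-associated microglia markers summed to 53.3 to 67.1 CPM in WT, 117 to 146 in Glb1KO and 683 to 794 in DKO, and 8 of 8 rose in DKO and 7 of 8 in Glb1KO. Mature oligodendrocyte markers summed to 5508 to 6284 CPM in WT, 3498 to 3977 in Glb1KO and 3535 to 4672 in DKO, and 8 of 8 fell in DKO and 8 of 8 in Glb1KO. The 6 neuron markers summed to 4229 to 4564 CPM in WT, 4657 to 4799 in Glb1KO, 4453 to 4897 in Neu3KO and 3811 to 4123 in DKO, so that every DKO library was below the 15 others. Of these, 2 were lower in DKO than in WT, 6 than in Glb1KO and 4 than in Neu3KO. Among all 18336 genes tested, 2765, 1337 and 2343 were lower in the same comparisons. Hindbrain and spinal neuron markers summed to 66.8 to 104 CPM in WT, 17.5 to 35.2 in Glb1KO, 14 to 78.1 in Neu3KO and 24.0 to 41.3 in DKO. Of these, 4 of 6 were lower in DKO than in WT. Between DKO and Glb1KO 0 of 6 differed, where 2879 of all 18336 genes did. In DKO against WT, 3 of 8 markers of pericytes and meningeal fibroblasts rose and 1 fell. Of 6 endothelial markers 1 rose and 1 fell, and of 7 choroid plexus markers 0 rose and 1 fell. Of 5 ependymal, 5 erythroid and 2 tested T cell markers 0 were called. Of 5 oligodendrocyte precursor markers 0 rose and 3 fell, in Glb1KO as in DKO. The part of these shifts in the S100 and annexin values was not tested.

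With Glb1 lost alone, no member passed the threshold. In Glb1KO against WT, 0 of 9 tested members passed by edgeR, 3 had an unadjusted p under 0.05, and DESeq2 also called 0. Over all genes 3.96% were called in either direction. The members' median log2 fold change was 0.15. The 4 with the widest shifts were S100a8 at 1.75 (SE 0.76, 95% interval 0.21 to 3.29, adjusted p = 0.229), S100a11 at 0.67 (SE 0.27, 95% interval 0.12 to 1.23, adjusted p = 0.193), S100a9 at 0.63 (SE 0.68, 95% interval -0.76 to 2.02, adjusted p = 0.718) and S100a6 at 0.33 (SE 0.16, 95% interval 0.01 to 0.64, adjusted p = 0.292). S100b, Anxa1 and Anxa2 were at -0.01, -0.02 and -0.04.

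Loss of Neu3 alone gave no call either. In Neu3KO against WT, 0 of 9 members passed by edgeR, 1 had an unadjusted p under 0.05 (S100a6, 0.34, SE 0.15, adjusted p = 0.823), and DESeq2 called 0 of the members. Over all genes 0% were called, with 1105 genes at an unadjusted p under 0.05 and 2 calls by DESeq2. The members' median was 0.08. For S100b the 95% interval ran from -0.19 to 0.07, and for Anxa5 from -0.12 to 0.17, so a rise of the size seen in DKO lay outside both.

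With both enzymes lost, several members stood above Glb1KO as well. In DKO against Glb1KO, 5 of 9 members rose, against 8.41% of all genes. In 4 members every DKO library was above every Glb1KO library, as in 6.78% of all genes. S100a6 was 1.84 higher on the log2 scale (SE 0.14), Anxa2 0.91 (SE 0.17), Anxa5 0.69 (SE 0.072), S100a10 0.51 (SE 0.12) and S100b 0.41 (SE 0.064), with edgeR adjusted p-values from 1.52e-11 to 0.00307. S100a8 at 1.52 (SE 0.54, adjusted p = 0.0521), S100a11 at 0.72 (SE 0.25, adjusted p = 0.0517) and S100a9 at 1.25 (SE 0.58, adjusted p = 0.152) did not pass. S100a8 passed without Glb1KO replicate 4 (2.18, adjusted p = 0.0122) and without DKO replicate 3 (1.80, adjusted p = 0.0179). In 8 of 9 other settings S100a8 did not pass, and with total counts it did (adjusted p = 0.0464). It was at 0.91 with the identifier letter as a term (adjusted p = 0.499) and at 1.06 within E libraries (adjusted p = 0.555). S100a11 passed without Glb1KO replicate 2 (0.81, adjusted p = 0.042), without Glb1KO replicate 5 (0.82, adjusted p = 0.0435) and without DKO replicate 4 (0.81, adjusted p = 0.0373). It also passed under 6 of 10 other settings: total counts (adjusted p = 0.0406), no filter (0.00827), the stricter filter (0.0491), DESeq2 (0.0344), the replicate block (0.0158) and the compared groups alone (0.0208). With the identifier letter as a term, S100a10 did not pass (0.56, adjusted p = 0.0757), and within E libraries (2 against 2) neither S100a10 (0.61, adjusted p = 0.128) nor Anxa2 (0.85, adjusted p = 0.0535) did.

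Against Neu3KO, DKO was higher for 8 of 9 members, against 12.3% of all genes. S100a8 and S100a9, which no Neu3KO library helped through the filter, had to be high in DKO here too, and of the 7 other tested members 6 were higher. In 6 members every DKO library was above every Neu3KO library, as in 8.43% of all genes. S100a6 was 1.83 higher on the log2 scale (SE 0.14), S100a8 2.08 (SE 0.57), S100a9 1.91 (SE 0.61), S100a11 1.10 (SE 0.26), Anxa2 0.92 (SE 0.17), Anxa5 0.77 (SE 0.072), S100a10 0.55 (SE 0.12) and S100b 0.46 (SE 0.064). Anxa1, at 0.23 (SE 0.28, adjusted p = 0.61), did not pass. The S100a9 call was lost without Neu3KO replicate 1 (1.75, adjusted p = 0.0582), replicate 3 (1.68, adjusted p = 0.0507) or replicate 5 (1.76, adjusted p = 0.0516) and without DKO replicate 1 (1.54, adjusted p = 0.074). Within E libraries (1 Neu3KO, 2 DKO), the lone library gives no spread of its own, so sizes alone are given. DKO was higher by 1.85 for S100a6, 0.61 for S100b, 0.66 for Anxa5 and 2.51 for S100a8. For S100a9 the difference was 3.29, for S100a10 0.67, for S100a11 1.16, for Anxa2 0.45 and for Anxa1 -0.85. Within W libraries (4 Neu3KO, 3 DKO) S100a6 differed by 1.83, Anxa2 by 1.10 and Anxa5 by 0.78. The comparisons with DKO share its 5 libraries, and those with WT share the WT libraries, so they are given side by side and not as independent results.

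**Figure D3:**
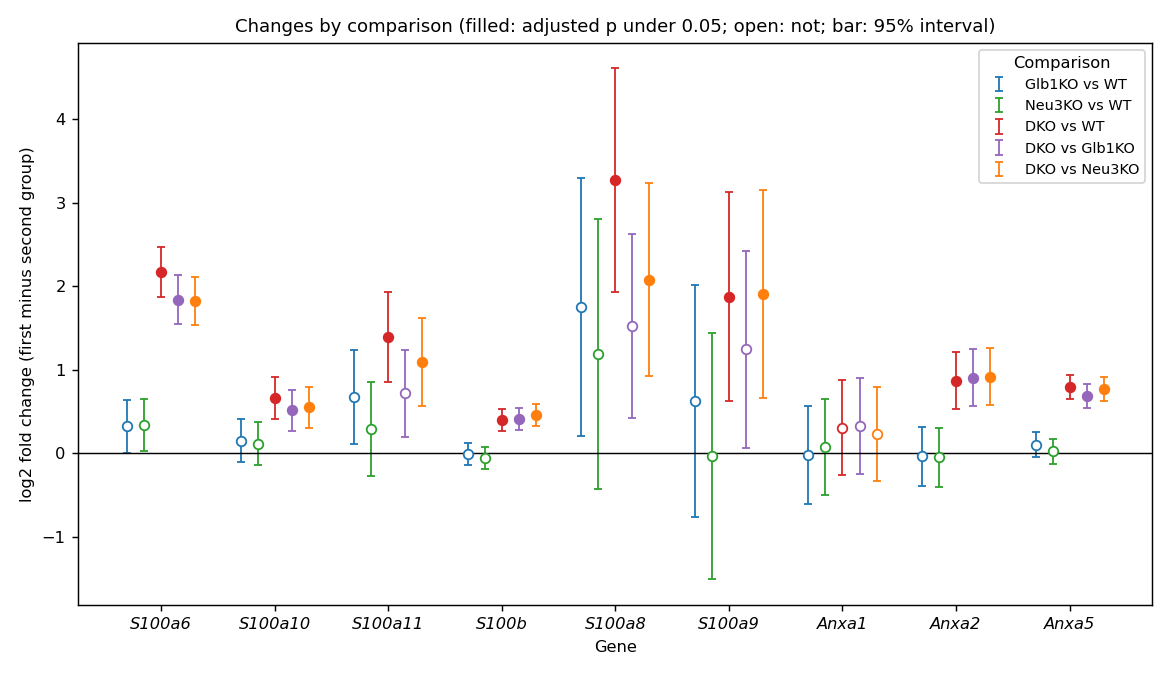
Log2 fold change (first minus second genotype, y axis) of the 9 tested members (x axis) in 5 comparisons, with 95% intervals as bars. Filled points passed an adjusted p of 0.05, and all points of Glb1KO and Neu3KO against WT are open.

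Whether the effect of losing Neu3 depended on Glb1 was tested as an interaction, the change from Glb1KO to DKO less the change from WT to Neu3KO. Here 4 of 9 members were positive, against 3.96% of all genes. S100a6 was at 1.5 (SE 0.21, edgeR adjusted p = 8.71e-06), Anxa2 at 0.95 (SE 0.24, adjusted p = 0.0125), Anxa5 at 0.66 (SE 0.10, adjusted p = 3.14e-05) and S100b at 0.47 (SE 0.091, adjusted p = 7.79e-04) on the log2 scale. The same 4 genes were those in which every DKO library lay above the 15 others, as in 4.71% of all genes. S100a10, at 0.40 (SE 0.18, adjusted p = 0.201), passed without WT replicate 1 (0.51, adjusted p = 0.0341). For S100a8, at 0.33 (SE 1.18), S100a9, at 1.28 (SE 0.93), S100a11, at 0.42 (SE 0.38), and Anxa1, at 0.26 (SE 0.40), the intervals included 0. Anxa2 did not pass with the identifier letter as a term (0.92, adjusted p = 0.0666). Within E libraries Neu3KO is 1 library without a spread of its own, so sizes alone are given. They were 0.46 for Anxa2, 0.58 for Anxa5, 1.34 for S100a6 and 0.66 for S100b, and rest on the lone library.

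Most of the S100 members sit close together on chromosome 3. S100a4 starts 9.11 kb before S100a6, and S100a8 and S100a9 start 56.1 and 79.8 kb after it. The block also holds S100a1, S100a13 and S100a16, and S100a11 and S100a10 lie farther along the same chromosome. The tested genes of the block did not all move alike in DKO against WT. Upstream of S100a6, S100a1 was 1.34 higher on the log2 scale (SE 0.077, edgeR adjusted p = 6.90e-16), S100a13 0.78 (SE 0.14, adjusted p = 5.77e-05) and S100a16 0.56 (SE 0.066, adjusted p = 3.24e-08). S100a5, only 4.36 kb before S100a6, was at -0.65 (SE 0.95, adjusted p = 0.669). Chtop, next to S100a1 and named here after its values were seen, fell by 0.22 (SE 0.051, adjusted p = 0.00127). Anxa2 lies on the chromosome of Glb1 but 44.9 Mb before it.

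Of the 10 other S100 genes listed, 9 were in the table and 4 were tested, of which 3 rose in DKO and 0 fell, with a median log2 fold change of 0.67. Over all genes tested, 14% rose and 15.1% fell. S100a1, a calcium sensor of muscle, neurons and glia, was at 31.9 ± 2.37 CPM in WT, 37.9 ± 3.89 in Glb1KO, 30.6 ± 2.52 in Neu3KO and 80.9 ± 7.92 in DKO (SD, n = 5). Of 9 other annexins, 7 were tested, and in DKO 3 rose and 1 fell, with a median of 0.10. The share that fell was near that of all genes. Anxa3 rose by 1.52 (SE 0.12, edgeR adjusted p = 1.95e-12), Anxa4 by 1.46 (SE 0.14, adjusted p = 2.38e-10) and Anxa7 by 0.23 (SE 0.054, adjusted p = 0.0016), while Anxa6 fell by 0.23 (SE 0.056, adjusted p = 0.00198). Anxa3 was also the 1 annexin called in Glb1KO, where it was 0.57 higher (SE 0.12, adjusted p = 0.00278) and 3.96% of all genes were called.

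**Figure D4:**
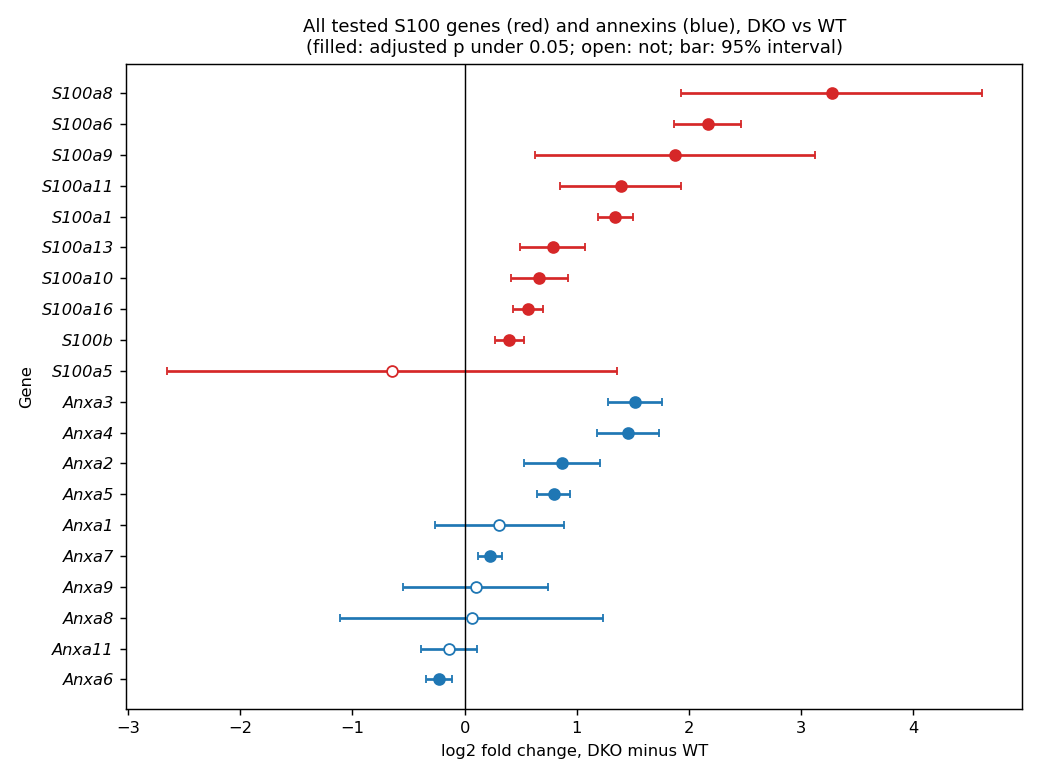
Log2 fold change, DKO minus WT (x axis), of every tested S100 gene (red) and annexin (blue), with 95% intervals as bars. Filled points passed an adjusted p of 0.05, and Anxa6 is the 1 filled point below 0.

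Partners and receptors of these proteins included genes higher and genes lower in DKO. Of 18 listed, 16 were tested, and in DKO against WT 6 rose and 3 fell, with a median of -0.04. Over all genes tested 14% rose and 15.1% fell, so the partners fell about as often as all genes did. Ahnak, a giant scaffold that the complex of S100a10 and Anxa2 binds, rose by 0.58 (SE 0.074, edgeR adjusted p = 1.69e-07). Plat, the tissue plasminogen activator that the same complex binds, rose by 0.61 (SE 0.074, adjusted p = 7.11e-08). Tlr4, a receptor for calprotectin, rose by 1.46 (SE 0.21, adjusted p = 1.34e-06), from a mean of 1.56 to 4.33 CPM. Kcnk3, a potassium channel whose transport to the membrane involves S100a10, fell by 0.46 (SE 0.077, adjusted p = 1.97e-05). In Glb1KO, where 3.96% of all genes were called, 0 partners rose and 1 fell. This was Ahnak2, named after its values were seen, by 0.70 (SE 0.17, adjusted p = 0.0112).

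Compared per length, in the FPKM the authors deposited, the members spanned a wide range of levels. In WT the order was S100b at 100.9 ± 9.42 FPKM, Anxa5 at 29.7 ± 3.08, S100a10 at 11.7 ± 2.52, S100a6 at 4.45 ± 0.94, S100a11 at 3.79 ± 1.73, Anxa2 at 2.36 ± 0.61, Anxa1 at 0.60 ± 0.18, S100a9 at 0.50 ± 0.28 and S100a8 at 0.13 ± 0.074 (SD, n = 5), with S100a4 listed at 0. Neighbours from S100a6 to Anxa2, and Anxa1 and S100a9, did not differ beyond their spread. In DKO the order began with S100b at 133.3 ± 13.4 FPKM and Anxa5 at 51.6 ± 4.37, and S100a6, at 20.03 ± 2.57, stood beside S100a10, at 18.7 ± 3.05. S100a11 followed at 9.95 ± 2.01, Anxa2 at 4.32 ± 0.73, S100a9 at 1.87 ± 1.26, S100a8 at 1.34 ± 0.79 and Anxa1 at 0.74 ± 0.33. S100a6 thus moved from the fourth to the third place, within the spread of S100a10, and Anxa1 fell behind both calprotectin genes, again within their spread.

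As a description over the 20 libraries, the genes with the most similar log2 CPM were sought for each member among the other tested protein-coding genes with a mean of at least 1 CPM. S100a6 was most like Slc43a3 (Pearson r = 0.99), Cd44 (0.97) and Chil1 (0.97), and with genotype means removed r was 0.84, 0.50 and 0.76. Anxa5 was most like Lamp1 (0.97, or 0.72 within genotypes), Cd9 (0.97, or 0.68) and C3 (0.97, or 0.66), and S100b like Abhd4 (0.93, or 0.76), Lamp1 (0.93, or 0.68) and Cd81 (0.93, or 0.80). Anxa2 was most like Tagln2 (0.94, or 0.80), Itgb1 (0.91, or 0.76) and Anpep (0.90, or 0.74). S100a10 was most like Rpl10a (0.89, or 0.69) and Arpc5 (0.89, or 0.74), and S100a11 like Gcsh (0.86, or 0.64), H2-DMb1 (0.86, or 0.70) and Stom (0.86, or 0.63). S100a8 was most like Fn1 (0.85, or 0.81), S100a9 like H2-Q7 (0.77, or 0.65) and Anxa1 like Cpne2 (0.79, or 0.78). The libraries share genotype differences and depth, so these values describe likeness only.

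Within genotypes the members did not all vary together. After removal of genotype means, r over the 20 libraries was 0.70 between Anxa1 and Anxa2, 0.66 between S100a6 and Anxa2, 0.64 between S100a6 and S100a10, 0.56 between S100a10 and Anxa2 and 0.52 between S100a8 and S100a9. It was 0.10 between S100a11 and Anxa1, and -0.17 between S100a8 and S100a11. The partners S100a10 and Anxa2 were thus more alike from library to library than S100a11 and Anxa1. These values come from a few reads per library for S100a8 and S100a9.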

How the data were processed

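The members and the gene lists were chosen with earlier results of these data known. Raw counts per gene and library, not normalized, were deposited by the authors, beside FPKM values scaled by them to gene length and depth. Log2 fold changes and adjusted p-values of their DKO and WT comparison are copied from a further deposited table, per the file headers. Tools named in the submitters' processing notes, without roles or strand setting, are DESeq2 1.20.0, featureCounts 1.5.0-p3, HISAT2 2.0.5 and fastp, with builds GRCm38 and mm10. No row lacked a gene name (0), and sample columns that matched no library numbered 0. Counts were filtered with filterByExpr (minimum count 10) and fitted with edgeR 4.0.16 in R 4.3.3 (limma 3.58.1, TMM factors, robust quasi-likelihood, a mean per genotype, 20 libraries). Calls used a Benjamini-Hochberg adjusted p under 0.05 over all 18336 genes tested, with no fold minimum, two-sided. SE were taken from the F statistic. CPM are TMM-scaled, and log2 CPM for likeness used a prior count of 2.

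All 10 members were named. From other lists, genes passing DKO against WT could be named, at most 4 by adjusted p and 2 by CPM, and up to 3 likeness genes per member, of which 1 is not reported here. Alternatives were other scaling factors, 2 other filters, DESeq2 1.42.0, the compared groups alone, a replicate block, the identifier letter, E libraries alone, and each library left out. W libraries alone were added after the data were seen. The fits were tested on simulated counts. Annotation was GENCODE M21, with start and end equal to the table's for all members.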

Additional observations from a re-analysis of the deposited data

Results flagged for a closer look

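Over 36 groups of 5 libraries (9 members with reads in 4 genotypes), a single library stood apart from the others in 2 groups. Chance gives about 1 such group in 20. The S100a8 level of WT replicate 2 was 0 CPM, and the nearest of the other WT libraries was at 0.105 CPM, a difference of 2 reads. The S100b level of Glb1KO replicate 4 was 139.3 CPM, and the nearest of the other Glb1KO libraries was at 150.7 CPM.

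The effect of losing Neu3 differed with the state of Glb1 by the interaction test for 4 members. On the log2 scale the difference was 1.5 for S100a6, 0.47 for S100b, 0.95 for Anxa2 and 0.66 for Anxa5. In each of these, Neu3KO against WT lay between -0.06 and 0.34 and DKO against Glb1KO between 0.41 and 1.84.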

How the results depend on the processing

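Over the members' fold changes, 484 of the values under other settings and 591 of those with a library left out kept their direction and their side of the threshold. Under other settings, 13 turned sign, 8 gained a call and 11 lost one. With a library left out, 26 turned sign, 6 gained a call and 7 lost one. Scaling moved the median of all genes by at most 0.0517 on the log2 scale. Calls for Neu3KO against WT, 0 in the fit reported, were 26 with no filter, 2 with DESeq2, 3 with the compared groups alone and 0 to 1 with a library left out. With the identifier letter as a term, calls over all genes were 3363 for DKO against WT, 315 for Glb1KO against WT (1 member, S100a8) and 1203 for DKO against Glb1KO. Within E libraries they were 2583 for DKO against WT, 323 for Glb1KO against WT, 901 for DKO against Glb1KO (3 members), 882 for DKO against Neu3KO (3 members) and 183 for the interaction (2 members). These fits hold fewer libraries or fewer within a letter. The stricter filter left S100a8 and S100a9 out, and 6 of 7 members rose in DKO against WT. The fit of DKO and WT alone also left both out, and again 6 of 7 members rose.

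Signs turned only for values that did not pass in the fit reported. Glb1KO against WT for S100b was 0.0018 with upper-quartile factors and 0.0043 with total counts. With the letter, Neu3KO against WT was 0.68 for S100a9, -0.046 for Anxa1 and 0.088 for Anxa2, and the interaction was -0.91 for S100a8 and -0.078 for S100a9. Within E libraries, Anxa1 was at -0.28 for DKO against WT, -0.19 against Glb1KO, -0.85 against Neu3KO and -0.76 for the interaction, the S100a8 interaction was -0.29, and Neu3KO against WT was 0.39 for Anxa2. With a library left out, Glb1KO against WT ranged from -0.046 to 0.034 for S100b, -0.17 to 0.13 for Anxa1 and -0.18 to 0.068 for Anxa2. Neu3KO against WT ranged from -0.63 to 0.20 for S100a9, -0.095 to 0.23 for Anxa1, -0.19 to 0.058 for Anxa2 and -0.030 to 0.067 for Anxa5. For Anxa1, DKO against Neu3KO ranged from -0.049 to 0.41 and the interaction from -0.025 to 0.43. The cause was not tested.

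Libraries with the same replicate number share only a number: of 30 same-number pairs 0 correlated over 0.1 (from -0.13 to 0.065), and 5 correlated best with their own number. With a replicate block, 5207 genes were called for DKO against WT, 685 for Glb1KO, 0 for Neu3KO, 2774 and 4448 for DKO against Glb1KO and Neu3KO, and 1136 for the interaction. The block added the call of S100a11 in DKO against Glb1KO (0.76, adjusted p = 0.0158) and changed no other call of a member. Depth limits S100a8 and S100a9 most, with 138 and 168 reads over all libraries.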

Other observations

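S100a5, which lies beside S100a6 and is known from olfactory neurons, varied widely among libraries of a genotype, from 0.53 to 4.13 CPM in WT, 0 to 1.28 in Glb1KO, 0 to 3.01 in Neu3KO and 0 to 2.02 in DKO.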
